A study of Mus musculus with 2 samples.

Results

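The cytoplasmic ribosomal protein genes encode the proteins that, with ribosomal RNA, make up the large and the small subunit of the ribosome. They were taken from the gene table by symbol: Rpl or Rps followed by a number and at most 1 of the letters a, l, x or y, together with Rplp0, Rplp1, Rplp2 and Rpsa. The rule found 80 genes of 32285, 49 of the large and 31 of the small subunit. It reads symbols only, but it was chosen with earlier results of these data known. Their share of all unique molecular identifiers (UMIs, which count captured transcripts) and the pattern of single members were described across lymphocytes, myeloid cells and cells low in Ptprc, and in treated against PBS tumours.

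Mouse 4T1 mammary carcinoma tumours, grown under the skin, were sampled in 2 single-cell libraries. The treated library came from mice given phototherapy mediated by AIE COF, a covalent organic framework, and the other from mice given PBS. Tumours were taken on day 7 after phototherapy, per the labels' protocols, which name the mice C57BL/c. The sources used here do not give sex, age or how many animals went into each suspension, so a library may hold the cells of 1 tumour or of several. With 1 library a group there is no replicate, so every difference is between these libraries and carries no test. Intervals are 95% and cover counting error only. Levels are counts-per-million (CPM) values, UMIs of a gene over all UMIs of the cells named, and a member was called different at 1.5-fold or more, where it had at least 50 UMIs over the cells compared.

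Ribosomal protein mRNAs are among the most abundant in growing cells. In mammals most begin with a C followed by a run of pyrimidines, the terminal oligopyrimidine (TOP) motif, through which mTOR and the RNA-binding protein Larp1 raise or lower the translation of the whole group without a matching change in mRNA. Resting lymphocytes hold little cytoplasm and translate little until they are activated, while tumour cells keep ribosome production high.

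After filtering, 8619 AIE COF cells and 7864 PBS cells remained, with 102030780 and 126857400 UMIs and medians of 3880 and 6380 UMIs per cell. The libraries shared 39 barcodes, 0.390% of the AIE COF and 0.435% of the PBS barcodes. Cells were clustered without the ribosomal protein genes, so their levels did not enter that step. The doublet scores and the UMI totals used to name clusters did include them. Lymphocytes (T-like, NK-like and B-like clusters) numbered 2856 and 1151, with medians of 1394 and 1963 UMIs. Myeloid cells (macrophage-, monocyte- and dendritic-like) numbered 1752 and 1195, with medians of 6142 and 6323 UMIs. These leave out cluster 11, which stayed unnamed although its 12 macrophage markers summed to 8307 and 8302 CPM. It held 296 and 444 cells of 500 to 1000 UMIs, with ribosomal protein shares of 8.87% and 10.7%. A further 144 and 229 cells held 1000 to 2000 UMIs, with shares of 9.77% and 10.6%, and the rest held more UMIs. The 5 clusters low in Ptprc, which encodes CD45 on all leukocytes, held 2537 and 2999 cells with medians of 29505 and 33109 UMIs. These stand for the tumour cells but keep the name Ptprc-low: Hmga2 was at 381 and 350 CPM and Rhox5 at 768 and 730 CPM there, while Krt8, Krt18 and Epcam, defining markers of epithelial cells, stayed below 1 CPM, and the 10 fibroblast markers summed to 3202 and 3678 CPM. Of the 14 tumour markers 7 had at least 50 UMIs. The 14 T cell markers summed to 4725 and 5677 CPM in lymphocytes, 37.8 and 36.3 CPM in myeloid cells and 61.8 and 51.2 CPM in Ptprc-low cells. The 12 macrophage markers summed to 219 and 157, 11490 and 14057, and 113 and 116 CPM in the same order.

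The annotated start sites of several members carry the TOP motif. The windows below are a selection of members named in the results, in which the motif is more frequent than among all members. Each window holds 15 bases before and 15 bases from the start site, from RefSeq on GRCm38.p6, and capitals mark a C at the start with the pyrimidines that follow it. Rps27 lies at chr3:90213634-90213663 on the minus strand, Rps15a at chr7:118116133-118116162 on the minus strand, Rpl28 at chr7:4792950-4792979 on the plus strand and Rps6 at chr4:86857353-86857382 on the minus strand. Rps27l lies at chr9:66946071-66946100 on the plus strand, Rpl13a at chr7:45128731-45128760 on the minus strand and Rpl5 at chr5:107900513-107900542 on the plus strand, and their windows have no such run at the annotated start.
Rps27: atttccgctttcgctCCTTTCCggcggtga
Rps15a: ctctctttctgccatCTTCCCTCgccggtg
Rpl28: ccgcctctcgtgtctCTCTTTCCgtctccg
Rps6: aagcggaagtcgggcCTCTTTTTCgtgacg
Rps27l: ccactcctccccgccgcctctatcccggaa
Rpl13a: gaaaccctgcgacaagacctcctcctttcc
Rpl5: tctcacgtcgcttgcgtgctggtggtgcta

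Of the 80 members, 60 had an entry in the RefSeq start-site table. A C followed by at least 4 pyrimidines stood exactly at an annotated start of 13 of them (21.7%), against 813 of all 27025 genes (3.01%). The letters CCGGAAG, on either strand, occurred in the 250 bases before the start of 18 members (30%), against 2115 of all genes (7.83%); the stretches searched for the 2 motifs do not overlap. Annotated starts can lie some bases from the start a cell uses, so a window without the run says only that the letters are not at that position.

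Of the 80 members, 77 had at least 50 UMIs over both libraries, and 69 reached 1000 CPM in both. The highest members were Rpl5, which binds 5S ribosomal RNA, at 6047 CPM in AIE COF and 5782 CPM in PBS cells, Rps15a at 6158 and 5552 CPM, Rpl41, the shortest ribosomal protein, at 5198 and 6396 CPM, Rpl23 at 5951 and 5637 CPM, Rpl37 at 5242 and 5730 CPM and Rps14 at 5648 and 5262 CPM. The kit reads 1 end of each transcript, so these counts were not divided by length. Rpl35, Rpl35a and Rpl10l were at 0 in both libraries, which allows up to 0.0294 CPM in the AIE COF and 0.0236 CPM in the PBS library. Rpl10l is a testis paralogue of Rpl10, while Rpl35 and Rpl35a are core subunits of every ribosome and each lies wholly inside the span of another listed gene. Both are thus at 0 beside such overlaps, and the sources used here do not say how reads on overlapping genes were counted.

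In all, 21 members overlap another listed gene, among them Rpl5, Rpl28, Rpl32, Rpl12, Rpl23a, Rps14 and Rps25, and whether strand was used in counting is not given, so their values are uncertain. Processed pseudogenes add a second doubt: 48 of 80 members have at least 1 annotated pseudogene whose end resembles their own transcript end (at least 90% identity over 200 bases), 27 have 10 or more, and Rpl7a has 91. Across members the Spearman correlation of CPM with the number of such look-alikes was -0.13, a description over 80 genes that share 2 libraries. The search used the last 300 bases of 1 annotated transcript per member. Some of these transcripts are long, with 5130 bases for Rps15a, 1106 for Rpl28 and 1047 for Rpl13a. No look-alike was found for the ends searched of Rps27l, Rpl13a, Rps15a, Rpl28 and Rps29, which says nothing of other ends of these genes. Rps27 had 8 and Rpl36 and Rpl7 had 12 each. The counts and the correlation above carry the same limit.

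Ribosomal protein transcripts made up about as large a share of the UMIs of lymphocytes as of Ptprc-low cells, and a far smaller share in myeloid cells. The share was 22.3% in AIE COF lymphocytes (22.30 to 22.37%) and 21.5% in PBS lymphocytes (21.46 to 21.55%). In myeloid cells it was 12.5% and 12.7%, and in Ptprc-low cells 21.7% and 22.5%. The myeloid share was lower than that of Ptprc-low cells by 0.79 on the log2 scale in the AIE COF library and by 0.82 in the PBS library. Lymphocytes differed from Ptprc-low cells by 0.04 in the AIE COF and -0.06 in the PBS library on the same scale. The spread between cells was wider than the last difference: the middle 50% of cells ran over 17.4 to 25.9% and 16.7 to 25.4% in lymphocytes, 10.3 to 14% and 10.2 to 14.4% in myeloid cells, and 19.7 to 23.2% and 19.8 to 24.2% in Ptprc-low cells. The middle ranges of myeloid cells and the other lineages do not overlap.

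In transcripts per cell the order was another one. A median lymphocyte held 287 ribosomal protein UMIs in the AIE COF and 424 in the PBS library, a myeloid cell 762.5 and 763, and a Ptprc-low cell 6328 and 7449. Like shares in lymphocytes and Ptprc-low cells thus came from totals that lie more than 10-fold apart. Depth moved with the lineage comparison. Cells of at least 1000 UMIs were thinned to 1000, which gave them equal weight. This left out 668 of 2856 AIE COF and 124 of 1151 PBS lymphocytes, with shares of 18.6% and 16.5%. Lymphocytes then stood 0.09 (AIE COF) and 0.01 (PBS) above Ptprc-low cells on the log2 scale, so that the sign in the PBS library turned. How much came from the cells left out, from equal weight or from depth was not tested. Among cells of 2000 to 4000 UMIs the share was 24.8% and 22.9% in lymphocytes, 11.1% and 10.6% in myeloid cells, and 13% and 11.2% in the 45 and 60 Ptprc-low cells of that depth, whose mitochondrial share was 7.75% and 7.95%. The part of depth and cell quality in the lineage difference was not tested.

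**Figure D1:**
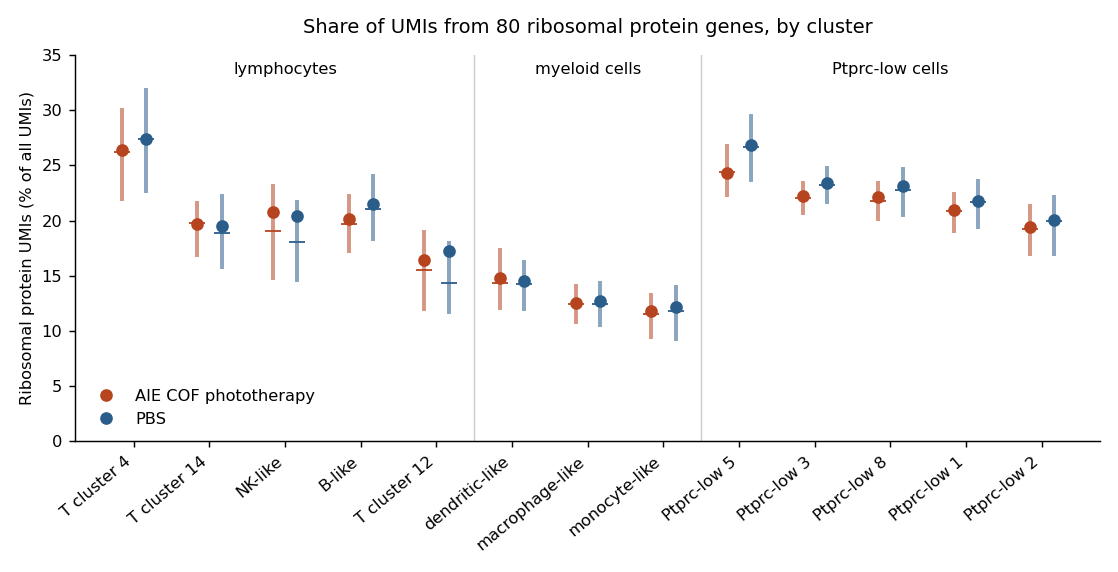
Share of UMIs from the 80 ribosomal protein genes (percent, vertical axis) in 13 clusters of the lymphocyte, myeloid and Ptprc-low lineages, AIE COF phototherapy left and PBS right. Points are the share of summed UMIs, dashes the median cell and bars the middle 50% of cells; T cluster 4 is highest at 26.4% and 27.4%, and of these 13 the monocyte-like cluster is lowest at 11.8% and 12.1%.

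Within a lineage the clusters differed by more than the libraries. T cluster 4, led by Satb1, a chromatin organiser of T cells, and Dapl1, had 26.4% in the AIE COF and 27.4% in the PBS library. T cluster 14, led by Nkg7, Cd8a and Gzmb of cytotoxic T cells, had 19.7% and 19.5%, and T cluster 12, led by Ctla4, Icos and Ikzf2 of regulatory T cells, 16.4% and 17.2%. Clusters 12 and 14 thus held smaller shares than cluster 4 in both libraries. NK-like cells had 20.7% and 20.4%, B-like cells 20.2% and 21.5%, and the 45 and 12 plasma-like cells, which are antibody secretors, 14.2% and 17.5%.

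Myeloid clusters were close to each other. Macrophage-like cells had 12.5% and 12.7%, monocyte-like cells 11.8% and 12.1%, and conventional dendritic-like cells 14.8% and 14.5%. Among Ptprc-low cells, cluster 5, led by the hypoxia genes Ero1l, Ndrg1 and Ankrd37, had the highest share, 24.3% and 26.8%. Cluster 2, led by H19 and the matrix genes Cilp, Tnc and Postn, had the lowest of those 5, 19.4% and 20.1%. A further 814 and 1658 Ptprc-low cells sat in clusters with medians under 10000 UMIs, a limit set with the data in view, and were kept out of the lineage; their share was 19.9% and 21.3%. The smallest share of any cluster was among these: Ptprc-low cluster 0, of few UMIs, had 5.97% and 6.31%, with mitochondrial shares of 10.4% and 8.53%. Nuclear-retained RNAs (Malat1 and Neat1, with Kcnq1ot1) made up 7.05% and 7.10% of its UMIs, against 1.31% and 1.76% in the Ptprc-low lineage.

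The balance of the subunits followed lineage. The large subunit's genes summed to 1.15 (AIE COF) and 1.22 (PBS) times the small subunit's in lymphocytes, 1.27 and 1.30 times in myeloid cells and 1.36 and 1.40 times in Ptprc-low cells. The ranges over clusters were 1.12 to 1.23 and 1.17 to 1.30 in lymphocytes, 1.24 to 1.27 and 1.28 to 1.31 in myeloid cells, and 1.34 to 1.38 and 1.38 to 1.42 in Ptprc-low cells. In each library the Ptprc-low clusters lay above all lymphocyte and myeloid clusters. In CPM, the large subunit made up 11.9% and 11.8% of lymphocyte UMIs and 12.5% and 13.1% of Ptprc-low UMIs, while the small subunit made up 10.4% and 9.68% in lymphocytes and 9.16% and 9.38% in Ptprc-low cells.

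Set against all UMIs, the myeloid difference ran through nearly the whole family. Of 75 members measured in both lineages and libraries, 63 were at least 1.5-fold lower and 1 higher in myeloid than in Ptprc-low cells in both libraries, where 34.7% of all genes were lower and 25.8% higher. The median member was lower by 0.82 (AIE COF) and 0.84 (PBS) on the log2 scale, against 0.22 in each library over all genes. Lymphocytes over Ptprc-low cells gave 2 members higher and 7 lower of 74 (24.3% and 32% of all genes), and lymphocytes over myeloid cells 50 higher and 1 lower of 74 (18.1% and 21.2% of all genes). The median over all genes in lymphocytes over Ptprc-low cells was -0.23 and -0.11. Relative to the median of the other genes the share was 0.25 and 0.06 higher in lymphocytes, and 0.59 and 0.65 lower in myeloid cells, than in Ptprc-low cells on the log2 scale.

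To describe the pattern apart from the total, each member was next expressed as its share of the ribosomal protein UMIs, called the pool here. On this scale, 11 of 74 members in lymphocytes and 5 of 75 in myeloid cells were called different from Ptprc-low cells. The call asked for 1.5-fold or more in both libraries, which 55.8% and 63.4% of all genes reached. Dividing by the members' own sum centres them near 0 by construction and shifts the other genes. In myeloid over Ptprc-low cells the median member was at -0.03 (AIE COF) and -0.02 (PBS), and the median over all genes at 0.57 and 0.60. All-gene shares on the pool scale, here and below, carry that shift and are no background for the members. With doublets left in, 3 in place of 11 members passed in lymphocytes: Rps27 was then at 1.18 and 0.98 and Rps27l at -1.34 and -1.002 against Ptprc-low cells, and the NK-like cluster held 343 CPM of Hmga2. The direction was the same in both libraries for 70 of 74 members in lymphocytes and 71 of 75 in myeloid cells. The few members that departed are described by subunit.

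**Figure D2:**
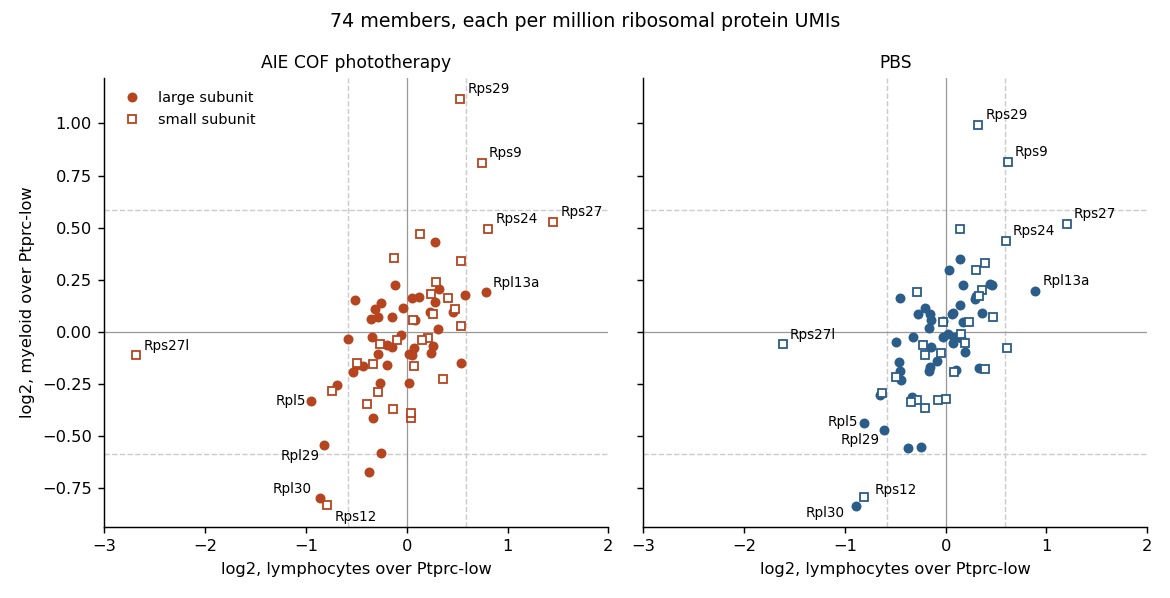
Share of each of 74 members in the ribosomal protein UMIs, as log2 of lymphocytes over Ptprc-low cells (horizontal axis) and of myeloid over Ptprc-low cells (vertical axis), in the AIE COF library (left) and the PBS library (right). Filled circles are large and open squares small subunit genes, dashed lines mark 1.5-fold; Rps27 lies far right, Rps27l far left, Rps29 highest, and Rpl30 and Rps12 lowest in both libraries. Rpl3l, with few UMIs in lymphocytes, is not drawn.

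Within the pool 4 members were higher in lymphocytes, where 24.6% of all genes were, and 3 of these were of the small subunit. Rps27, a zinc-binding protein of the small subunit, had 6125 CPM in AIE COF lymphocytes against 2172 CPM in Ptprc-low cells, and 5154 against 2347 CPM in the PBS library. Within the pool it was higher in lymphocytes by 1.45 (1.43 to 1.47) and 1.20 (1.18 to 1.22) on the log2 scale, the farthest of any member upwards. Myeloid cells had 1815 and 1906 CPM of Rps27. Rps24, needed for maturation of the small subunit's RNA, had 4911 and 4090 CPM in lymphocytes against 2719 and 2830 CPM in Ptprc-low cells, pool differences of 0.81 and 0.60. Rps9 had 2517 and 2272 CPM in lymphocytes and 1483 and 1546 CPM in myeloid cells, against 1458 and 1550 CPM in Ptprc-low cells. Its pool differences were 0.74 and 0.62 in lymphocytes and 0.81 and 0.82 in myeloid cells, and it was the 1 member at least 1.5-fold above Ptprc-low cells in both immune lineages and both libraries.

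The large subunit contributed Rpl13a, which in human monocytes also leaves the ribosome to silence inflammatory mRNAs. It had 4851 and 4999 CPM in lymphocytes, 1807 and 1835 CPM in myeloid cells and 2736 and 2822 CPM in Ptprc-low cells, a pool difference of lymphocytes over Ptprc-low cells of 0.78 and 0.89. Further small subunit genes came next without reaching 1.5-fold in both libraries: Rps15a at 0.54 and 0.61, and Rps7, which can bind Mdm2, at 0.48 and 0.47. Rps15a was the most abundant member of lymphocytes, 9648 and 8437 CPM or 4.32% and 3.92% of their pool, against 6449 and 5791 CPM in Ptprc-low cells.

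Lower in lymphocytes than in Ptprc-low cells within the pool were 7 members, where 31.2% of all genes were. Rps27l stood apart and is described below. Rpl5, which with Rpl11 and 5S RNA can hold Mdm2 away from p53, had 3661 and 3462 CPM in lymphocytes against 6846 and 6350 CPM in Ptprc-low cells, differences of -0.95 and -0.81. Rpl30 had 2294 and 2076 CPM against 4045 and 4015 CPM (-0.86 and -0.89), and Rps12 had 2395 and 2082 CPM against 4014 and 3830 CPM (-0.79 and -0.81). Rpl29 and Rpl37 followed with differences between -0.82 and -0.61.

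Rpl30 and Rps12 were also the 2 members lower in myeloid cells, where 17.3% of all genes were, at 1346 and 1273 CPM for Rpl30 and 1305 and 1251 CPM for Rps12. Their pool differences from Ptprc-low cells were -0.80 and -0.84 for Rpl30 and -0.83 and -0.79 for Rps12. Rpl23a (-0.67 and -0.56), Rpl8 (-0.58 and -0.55), Rpl29 (-0.55 and -0.47) and Rps20 (-0.37 and -0.37) came next without reaching 1.5-fold in both libraries. The myeloid pool had 3 higher members, Rps29, Rps9 and the rare Rpl3l, where 46.2% of all genes were higher. Rps29, another zinc-binding protein of the small subunit, was the member highest in myeloid cells among those of high level: 4340 and 4888 CPM, against 3453 and 4329 CPM in Ptprc-low cells, or 1.12 and 0.99 within the pool. Lymphocytes had 5139 and 5168 CPM of Rps29. Rps27 (0.53 and 0.52), Rps25 (0.47 and 0.49) and Rps24 (0.49 and 0.44) were also above Ptprc-low cells in the myeloid pool.

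Set directly against myeloid cells within the pool, lymphocytes were at least 1.5-fold higher in 2 members in both libraries, where 6.67% of all genes were, and lower in 3, where 49.8% were. Rps27 (0.92 and 0.68) and Rpl13a (0.59 and 0.69) were higher. Rps27l (-2.57 and -1.55), Rps29 (-0.59 and -0.67) and Rpl10 (-0.66 and -0.62), which joins the large subunit late in its assembly, were lower. The direction was the same in both libraries for 65 of 74 members.

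Rps27 and Rps27l encode near-identical small subunit proteins from chromosomes 3 and 9, and RPS27L is a known p53 target in human cells. In lymphocytes they stood on opposite sides of Ptprc-low cells, while in myeloid cells the CPM of both was lower than in Ptprc-low cells. Rps27l had 280 CPM (265 to 295) in AIE COF and 473 CPM (449 to 498) in PBS lymphocytes, 934 and 823 CPM in myeloid cells, and 1743 and 1515 CPM in Ptprc-low cells. Within the pool it was lower in lymphocytes than in Ptprc-low cells by 2.68 (AIE COF) and 1.62 (PBS) on the log2 scale, the farthest of any member downwards, while in myeloid cells the difference was -0.11 and -0.06. Transcripts typical of Ptprc-low cells were also counted in lymphocytes, Hmga2 at 21.6 and 20.2 CPM and Rhox5 at 44.6 and 51.1 CPM, and their part in the low lymphocyte level of Rps27l was not tested.

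**Figure D3:**
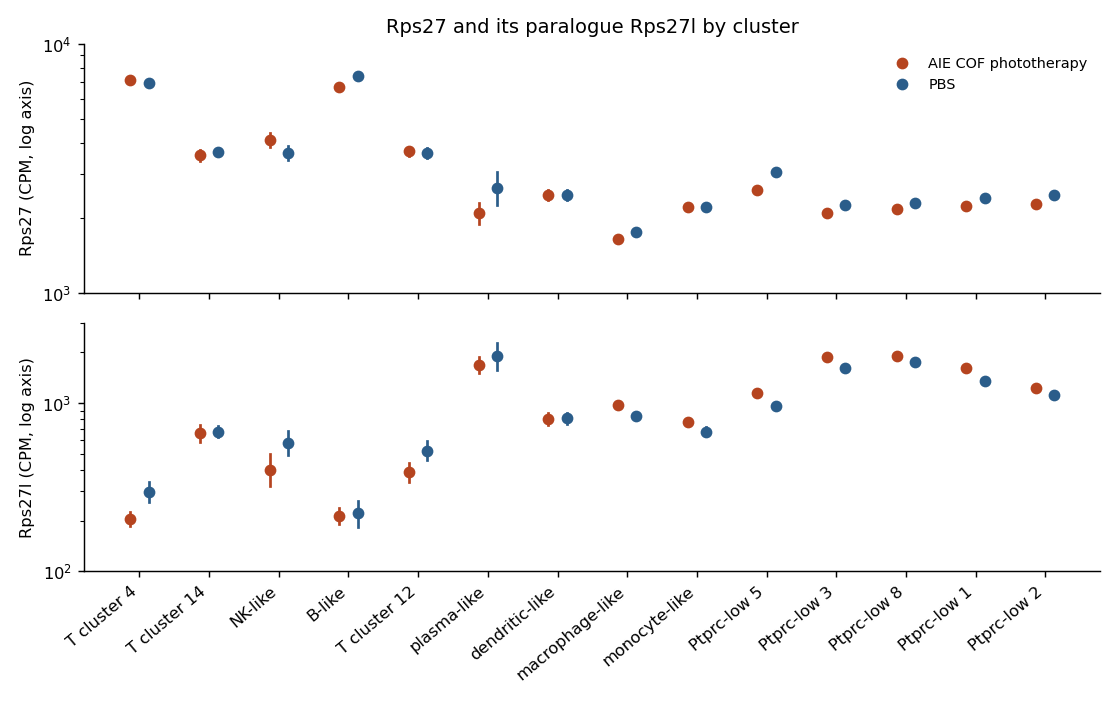
Rps27 (upper) and Rps27l (lower) in CPM on log axes by cluster, AIE COF phototherapy left and PBS right in each pair. Bars are 95% counting intervals; T cluster 4 and B-like cells are highest for Rps27 and lowest for Rps27l, and plasma-like cells stand with the Ptprc-low clusters for both.

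Over the lymphocyte clusters the pair split the same way. Rps27 was at 7133 and 6967 CPM in T cluster 4 and 6697 and 7449 CPM in B-like cells. Rps27l was at 205 (186 to 225) and 296 (258 to 338) CPM in T cluster 4 and 214 and 222 CPM in B-like cells. Those clusters thus had the highest Rps27 and the lowest Rps27l. T cluster 14 had 3569 and 3673 CPM of Rps27 with 664 and 678 CPM of Rps27l, NK-like cells 4120 and 3643 CPM with 403 and 582 CPM, and T cluster 12 3710 and 3641 CPM with 388 and 523 CPM. In these 3 clusters both genes took middle values. Plasma-like cells had 2080 and 2624 CPM of Rps27 and 1695 and 1900 CPM of Rps27l, close to the Ptprc-low clusters, whose ranges were 2091 to 2577 and 2257 to 3058 CPM for Rps27 and 1147 to 1911 and 967 to 1757 CPM for Rps27l.

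The other paralogues are given in turn. Rpl22l1, the paralogue of the RNA-binding member Rpl22 and outside the symbol rule, had 569 and 574 CPM in lymphocytes, 285 and 292 CPM in myeloid cells and 230.4 and 227 CPM in Ptprc-low cells, a difference of lymphocytes over Ptprc-low cells of 1.30 and 1.34 on the log2 scale of CPM. Rpl22, which mouse T cell development needs, went the other way, with 1646 and 1363, 1111 and 971, and 2152 and 1952 CPM in the same order. Rpl36al, also outside the rule, had 714 and 822 CPM in lymphocytes and 1263 and 1316 CPM in Ptprc-low cells, while its partner Rpl36a had 2192 and 2127 and then 2353 and 2501 CPM.

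Rpl3l, a striated muscle paralogue of Rpl3, was counted 50 and 38 times in myeloid cells, 3.85 and 4.29 CPM, and 11 and 32 times in Ptprc-low cells, 0.141 and 0.308 CPM. Within the pool that is 5.57 (4.61 to 6.66) and 4.62 (3.90 to 5.35) higher in myeloid cells on the log2 scale. The 50 and 38 myeloid UMIs fell in 1752 and 1195 cells, so most of those cells held none. Of these UMIs 27 and 14 came from monocyte-like cells, at 10.3 and 8.68 CPM. Rpl3 itself had 1854 and 1949 CPM in lymphocytes, 948 and 960 in myeloid cells and 1535 and 1592 in Ptprc-low cells. Rpl39l had 83 and 68 UMIs in all, against 3497 and 3289 CPM of Rpl39 in lymphocytes, 2639 and 2406 in myeloid cells and 4221 and 4314 in Ptprc-low cells. Rps4x, on the X chromosome, had 4433 and 3672, 2479 and 2190, and 5227 and 4875 CPM in the 3 lineages, and its paralogue Rps4l was not found among the symbols.

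The stalk of the large subunit, which recruits elongation factors, is built from Rplp0 with the acidic Rplp1 and Rplp2. Rplp0 had 2953 and 2924 CPM in lymphocytes, 1326 and 1420 in myeloid cells and 2398 and 2683 in Ptprc-low cells. Rplp1 had 4035 and 3321, 1845 and 1801, and 3160 and 3073 CPM, and Rplp2 had 3785 and 3291, 1611 and 1658, and 2457 and 2506 CPM. The 2 acidic genes were thus above Ptprc-low cells in lymphocytes and below them in myeloid cells. Rpsa, the small subunit protein also known as the laminin receptor, had 1274 and 1337, 475 and 534, and 962 and 1064 CPM.

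The share differed little between treated and PBS cells. It was 20.3% in AIE COF and 21.6% in PBS cells over the whole tumour, a log2 ratio of -0.09. Lymphocytes were 0.05 higher (0.050 to 0.059), myeloid cells 0.02 lower and Ptprc-low cells 0.05 lower on the log2 scale. Each of these is smaller than the spread between cells of 1 library. The whole-tumour ratio came to 0.01 when each named class had equal weight, and to 0.0048 when each cell had; the libraries differ in how many cells of each class they hold.

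The lymphocyte ratio likewise stood beside a difference in makeup. T cluster 4, with the highest share, held 1180 of 2856 AIE COF and 306 of 1151 PBS lymphocytes. Within T cluster 4, T cluster 12 and B-like cells the share was lower in the AIE COF library, and with the 5 lymphocyte clusters at equal weight it was 20.7% and 21.2%, a log2 ratio of -0.04. Over 13 clusters of lymphocytes, myeloid and Ptprc-low cells, the share was lower in the AIE COF library in 10, and the large over small subunit ratio was lower in 13. These clusters come from the same 2 libraries and are not replicates.

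Single members differed by at least 1.5-fold between treated and PBS cells in 1 of 77 cases over the whole tumour, where 13.6% of all genes did. That member was Rpl39l, a testis paralogue with only 151 UMIs over both libraries, at 0.813 CPM in AIE COF and 0.536 CPM in PBS cells (log2 0.60, 0.12 to 1.09). In lymphocytes 1 of 74 differed, where 16.9% of all genes did. None of 75 did in myeloid cells (9.65% of all genes) and none of 74 in Ptprc-low cells (9.48% of all genes). The medians over members and over all genes were -0.09 and 0.01 in the whole tumour, 0.03 and -0.02 in lymphocytes, -0.04 and -0.01 in myeloid cells and -0.05 and -0.00 in Ptprc-low cells.

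The member that differed in lymphocytes was Rps27l, at 280 CPM in AIE COF against 473 CPM in PBS lymphocytes, a log2 ratio of -0.76 (-0.87 to -0.65). In no lymphocyte cluster was it 1.5-fold apart: it was 205 against 296 CPM in T cluster 4, 388 against 523 CPM in T cluster 12, 403 against 582 CPM in NK-like cells, 664 against 678 CPM in T cluster 14 and 214 against 222 CPM in B-like cells. With those 5 clusters at equal weight the levels were 375 and 460 CPM, a log2 ratio of -0.30, and with doublets left in the ratio was -0.05, so the call did not hold in either case. In myeloid and Ptprc-low cells Rps27l was higher in the AIE COF library, by 0.18 and 0.20.

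**Figure D4:**
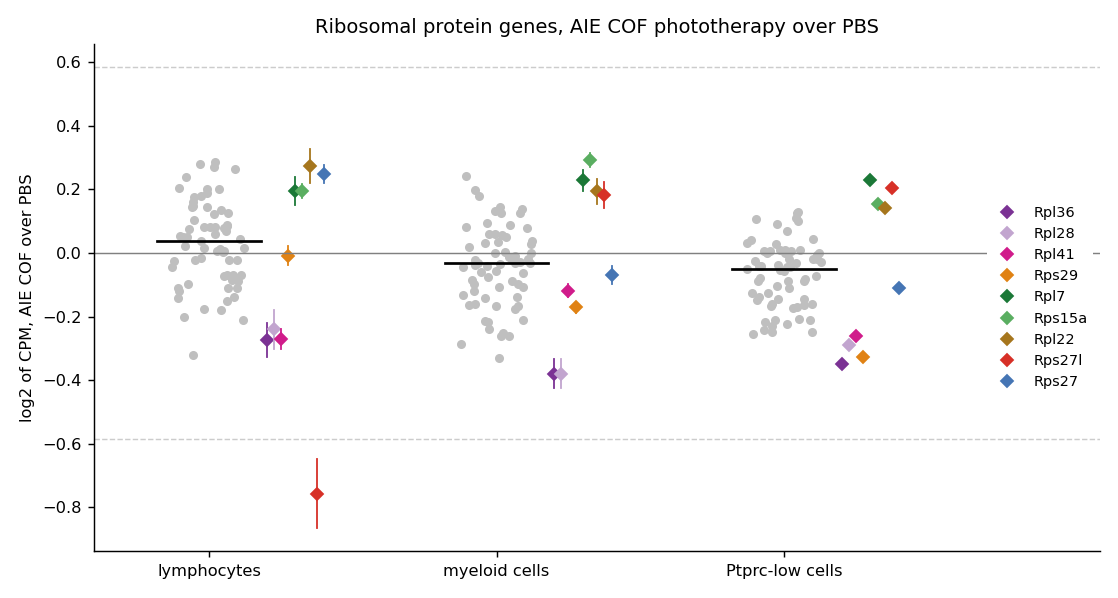
Log2 of CPM, AIE COF phototherapy over PBS, for each measured member with at least 10 CPM in PBS cells, in lymphocytes, myeloid cells and Ptprc-low cells. Coloured diamonds are 9 named members with 95% counting intervals, grey points the others, black lines the median of the grey points and dashed lines 1.5-fold; Rps27l in lymphocytes is the only point past a dashed line, and Rpl36 and Rpl28 lie low and Rpl7 and Rps15a high in each lineage.

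Below 1.5-fold, several members kept one direction. Rpl36, a large subunit protein, had 1326 CPM in AIE COF and 1603 CPM in PBS lymphocytes, 667 and 868 CPM in myeloid cells, and 1245 and 1588 CPM in Ptprc-low cells, log2 ratios of -0.27, -0.38 and -0.35. Rpl28 was at -0.24, -0.38 and -0.29, Rpl24, which bridges the subunits, at -0.32, -0.26 and -0.25, and Rpl41 at -0.27, -0.12 and -0.26. Rpl7 was the other way in every lineage, with 2424 against 2116 CPM, 1545 against 1318 CPM and 2872 against 2450 CPM, ratios of 0.20, 0.23 and 0.23. Rps15a was at 0.19, 0.29 and 0.16 and Rpl22 at 0.27, 0.19 and 0.14.

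Of the 74 members measured in each of the 13 clusters, 17 were lower and 4 higher in the AIE COF library in every one, where 4.3% of all genes so measured were lower and 3.67% higher in every one. The 4 were Rps4x, Rpl22, Rps15a and Rpl7, chosen for naming after their values were seen. As a count, 4 of 74 is near the all-gene share for higher. The all-gene shares include the members and were not matched for level. Counting error turns the sign of a gene of few UMIs more readily than that of an abundant one. These shares are thus no close background for either count. The log2 ratio of Rpl36 ran from -0.48 to -0.27 over the clusters, that of Rpl28 from -0.47 to -0.14, that of Rps29 from -0.36 to -0.10, and that of Rpl7 from 0.10 to 0.26. A difference that is alike in unrelated cell types of 1 pair of libraries cannot be told apart from one between library preparations.

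Within single lineages further members were farthest out. In lymphocytes these were Rpl32 at -0.21, and Rpl12 at 0.29, Rplp1 at 0.28, Rps4x at 0.27, Rps24 at 0.26 and Rps27 at 0.25. Rps27 was 6125 against 5154 CPM in lymphocytes as a whole, but 6697 against 7449 CPM in B-like cells and, at equal cluster weight, 5046 against 5075 CPM. In myeloid cells Rpl23a was at -0.33, Rpl26 at -0.29, Rpl13 at -0.26, and Rpl5 at 0.24 and Rpl23 at 0.20. In Ptprc-low cells Rps29 was at -0.33, Rps6, the substrate of S6 kinase, at -0.26, Rps19, mutated in human Diamond-Blackfan anaemia, at -0.25, and Rps14 and Rpl23 at 0.13 each. All of these lie within 1.5-fold. Over the whole tumour 61 of 77 members were below and 16 above 0, with Rpl36 at -0.39, Rpl28 at -0.34, Rpl23a at -0.31, Rpl41 and Rpl24 at -0.30 and Rps6 at -0.28, and Rpl7 at 0.18, Rps15a at 0.15, Rps27l at 0.13, Rps14 at 0.10 and Rpl22 at 0.09 as the far members besides Rpl39l. The whole-tumour direction of Rps27l turned with each cell (-0.16) or each named class (-0.0508) at equal weight, after thinning (-0.0955) and among cells of 1000 to 4000 UMIs (-0.574).

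In lymphocytes the genes that build ribosomes did not keep the level of the ribosomal proteins, while in myeloid cells both were below Ptprc-low cells. The 36 ribosome biogenesis genes, such as the nucleolar factors Ncl, Fbl and Nop56, took 0.277% of UMIs in AIE COF and 0.289% in PBS lymphocytes, 0.225% and 0.236% in myeloid cells and 0.562% and 0.529% in Ptprc-low cells. Of these 36, 26 (AIE COF) and 23 (PBS) were at least 1.5-fold lower in lymphocytes than in Ptprc-low cells and none was higher, where 39.9% and 35.8% of all genes were lower and 29.5% and 29.2% higher. Their median log2 ratios were -0.95 and -0.90, against -0.23 and -0.11 over all genes, while the median ribosomal protein stood at 0.04 and -0.07. Rrs1, an assembly factor of the large subunit, had 22.4 against 102 CPM and 20.9 against 90.7 CPM. In myeloid cells 31 and 30 were lower, where 38.7% and 38.6% of all genes were, and 0 and 1 higher, where 28.6% and 28.8% were, with Mrto4 at -1.99 and -1.88 and Tcof1, a cofactor of ribosomal RNA synthesis, at 0.51 and 1.36.

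**Figure D5:**
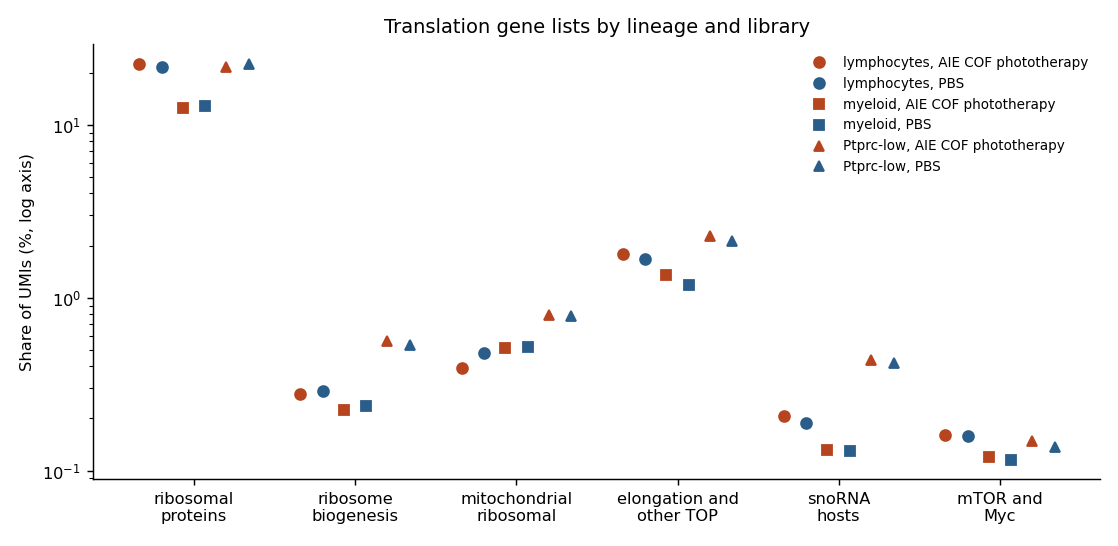
Share of UMIs (percent, log axis) of the ribosomal proteins and of 5 further translation gene lists, by lineage and library, with AIE COF phototherapy left of PBS. Ribosomal proteins are as high in lymphocytes as in Ptprc-low cells, whereas biogenesis, mitochondrial ribosomal protein and snoRNA host genes are lower in lymphocytes and myeloid cells than in Ptprc-low cells in both libraries.

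Elongation factors and other TOP mRNAs lay between. The 16 genes took 1.78% and 1.67% of UMIs in lymphocytes, 1.35% and 1.18% in myeloid cells and 2.27% and 2.14% in Ptprc-low cells. In lymphocytes against Ptprc-low cells 8 and 7 were lower and 2 and 2 higher, near the all-gene share for lower (39.9% and 35.8%) and below it for higher (29.5% and 29.2%). Npm1, a nucleolar chaperone, had 1659 against 5766 CPM and 1724 against 5277 CPM, and Eef1g was lower by 1.42 and 1.44 on the log2 scale. Eef2, the translocation factor, was higher by 1.16 and 1.24 and Eif3f by 0.77 and 0.85. In myeloid cells 11 and 12 of the 16 were lower than in Ptprc-low cells, where 38.7% and 38.6% of all genes were.

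The 78 mitochondrial ribosomal proteins, of which 77 were measured, took 0.389% and 0.481% of UMIs in lymphocytes, 0.509% and 0.519% in myeloid cells and 0.798% and 0.785% in Ptprc-low cells. In lymphocytes 51 and 45 were lower and 3 and 2 higher than in Ptprc-low cells, where 39.9% and 35.8% of all genes were lower and 29.5% and 29.2% higher. The snoRNA host RNAs, 8 of 9 measured, include Gas5, a TOP RNA, at 950 against 2426 CPM and 870 against 2300 CPM in lymphocytes against Ptprc-low cells; 6 and 6 of the 8 were lower in lymphocytes, beside the same all-gene shares.

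Among the 20 genes of mTOR and Myc control, 4 and 4 were higher and 6 and 6 lower in lymphocytes than in Ptprc-low cells, at or below the all-gene shares of 29.5% and 29.2% higher and 39.9% and 35.8% lower. The members farthest out are given as single values. Pdcd4, an inhibitor of eIF4A, had 475 against 28.0 CPM in the AIE COF library, log2 ratios of 4.09 and 4.12, and Sesn1, an inhibitor of mTORC1 signalling, was higher by 2.19 and 1.73. Eif4ebp1, which sequesters eIF4E, had 19.9 against 206 CPM, ratios of -3.37 and -2.61. The 20 cell cycle genes took 0.120% and 0.194% in lymphocytes, 0.207% and 0.166% in myeloid cells and 0.370% and 0.345% in Ptprc-low cells.

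The lists were also compared between treated and PBS cells. Of 36 ribosome biogenesis genes, 1 in lymphocytes, 1 in myeloid cells and 0 in Ptprc-low cells were at least 1.5-fold apart. Of all genes 16.9%, 9.65% and 9.48% were. In lymphocytes 7 of 71 measured mitochondrial ribosomal proteins were lower and 1 higher in the AIE COF library. That is near the all-gene share for lower (9.6%) and below it for higher (7.29%). Their median was -0.29 against 0.03 for the cytoplasmic ones. The cell cycle genes were lower in AIE COF lymphocytes for 9 of 20, again against 9.6% of all genes, with a median of -0.54, beside the larger share of T cluster 4 there, whose part in these values was not tested. The 5 measured ribosomal proteins outside the symbol rule had no member 1.5-fold apart. Fau, which encodes a small subunit protein as a fusion, had 2923 and 2959 CPM in lymphocytes, 1876 and 2141 in myeloid cells and 2405 and 2774 in Ptprc-low cells.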

How the data were processed

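The deposited values are raw UMI counts per gene and barcode for 2 libraries; the authors used the MobiCube 3' kit and a NovaSeq 6000, per the labels' protocols, and STAR with mm10, which the submitters' processing notes name without saying how they were used. Nothing used here states the counting program, its annotation, its strand setting or its barcode filter.

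Barcodes having at least 200 genes and at most 20% mitochondrial UMIs were kept, and doublets were removed by Scrublet score at 0.8% per 1000 barcodes. Clustering used scanpy 1.11.5 and leidenalg 0.10.2 without the members (2000 variable genes, 30 components, 15 neighbours, resolution 1.0, both libraries together). A cluster took a type's name if more than 50% of the markers detected for it (3 or more genes) stood at 25% or more of their maximum over clusters, with a UMI in 5% of cells; unnamed clusters under 100 CPM of Ptprc whose middle cell held 10000 UMIs or more formed the Ptprc-low lineage. UMIs were summed per class; ratios carry exact conditional binomial, shares Clopper-Pearson and levels exact Poisson 95% intervals. Members with under 50 UMIs were not compared, and 0 counts were set to 3. The statistics were tested on simulated data. Gene positions are from GENCODE M21 on GRCm38 and start sites from RefSeq on GRCm38.p6.

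The members and lists were chosen with earlier results of these data known. Named are the 6 members of highest CPM, up to 6 highest and 6 lowest of each comparison, the stalk genes, the paralogue pairs, members at 0, and up to 2 highest and 2 lowest of other lists; a few more are named after their values were seen, and some genes that the rule would name are not reported here. Alternatives covered the cell filter, doublets, thinning, weighting, denominator, scaling, clustering, a marker gate, depth and the UMI minimum.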

Additional observations from a re-analysis of the deposited data

Results flagged for a closer look

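With cells summed as they are, the direction of the treatment difference was not the same in every lineage. The ribosomal protein share was higher in AIE COF than in PBS cells by 0.0546 on the log2 scale in lymphocytes, but lower in myeloid cells (-0.0229) and in Ptprc-low cells (-0.0537). Rps27l was at -0.757 in lymphocytes, against 0.183 in myeloid cells and 0.203 in Ptprc-low cells. At equal weight per lymphocyte cluster the lymphocyte share was lower too (-0.0361) and Rps27l was at -0.296, and with doublets left in Rps27l was at -0.0467 in lymphocytes. With 1 library a group neither difference between lineages was tested.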

How the results depend on the processing

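Values are log2 ratios of the share for AIE COF over PBS in the whole tumour, lymphocytes, myeloid and Ptprc-low cells (-0.09, 0.05, -0.02 and -0.05 as reported), then, for the AIE COF and the PBS library, for lymphocytes over Ptprc-low cells (0.04 and -0.06) and myeloid over Ptprc-low cells (-0.79 and -0.82). Shifts beyond counting error are given, and their cause was not tested. The stricter cell filter (500 genes, 10% mitochondrial) gave -0.0900 whole, 0.0601 lymphocytes, -0.0573 Ptprc-low and 0.0536 for lymphocytes over Ptprc-low in the AIE COF library. With doublets left in these were -0.0901 whole, 0.0376 lymphocytes, then 0.0175 and -0.0738, and -0.776 and -0.809, with 0 lymphocyte members 1.5-fold apart by treatment and 3 in place of 11 within the pool. Thinning to 1000 UMIs gave -0.0038 whole, -0.0055 myeloid, -0.0218 Ptprc-low, 0.0906 and the reversed 0.0131, and -0.800 in the AIE COF library, with 0 members 1.5-fold apart in the whole tumour and in lymphocytes, and Rps27l in the whole tumour reversed at -0.0955. Equal weight per cell gave the reversed 0.0048 whole, 0.0335 lymphocytes, -0.0084 myeloid, -0.0203 Ptprc-low, 0.0272 and -0.0266, and -0.801 and -0.813, again 0 members in the whole tumour and in lymphocytes, and Rps27l reversed at -0.16 in the whole tumour. Equal weight per named class reversed the whole tumour (0.0124) and Rps27l there (-0.0508).

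Leaving mitochondrial UMIs out of the total gave -0.0869, 0.0619, -0.0276 and -0.0552, then -0.0719 in the PBS library, and -0.779 and -0.807. Scaling to the median of the other genes gave -0.0941, 0.0787, -0.0130 and -0.0511, then 0.246 and the reversed 0.0634, and -0.588 and -0.648. Clustering each library apart gave -0.0029 myeloid, -0.0550 Ptprc-low and -0.838 for myeloid over Ptprc-low in the PBS library. A gate on marker UMIs gave 0.0375 lymphocytes, -0.0583 Ptprc-low, 0.0275 and -0.0684, and -0.774 and -0.813. Cells of 1000 to 4000 UMIs, few of them Ptprc-low, reversed the whole tumour (0.156), myeloid (0.0652) and Ptprc-low (0.179) ratios, gave 0.0617 in lymphocytes, 0.833 and the reversed 0.950, and -0.236 and -0.122, with 0, 0, 1 and 3 members 1.5-fold apart in the whole tumour, lymphocytes, myeloid and Ptprc-low cells; Rps27l reversed at -0.574 in the whole tumour and at 0.201 within the pool of PBS myeloid over Ptprc-low cells. A minimum of 10 UMIs gave 2 members in lymphocytes and 2 in Ptprc-low cells. Of 2 alternatives chosen after seeing the data, equal weight per lymphocyte cluster reversed the lymphocyte ratio (-0.0361) and left 0 members, and counting unnamed clusters with the nearest lineage gave -0.0189 myeloid, 1 member in Ptprc-low cells, 0.0503 and -0.0582, and -0.824 in the PBS library. The myeloid share stayed below the Ptprc-low share in both libraries under each of these settings.

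No paired analysis was possible because each group has 1 library, and for the same reason no replicate was left out. Thinning left out 668 AIE COF and 124 PBS lymphocytes.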
